A study of Mus musculus with 2 samples.

Results

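The genes described are 10 mouse Fc receptors, Fc receptor-like proteins and membrane adaptors, out of 20247 protein-coding genes with a usable expression value. They comprise the adaptors *Tyrobp*, *Fcer1g* and *Hcst*, the activating receptor chains *Fcgr1*, *Fcgr3*, *Fcgr4* and *Fcer1a*, the inhibitory receptor *Fcgr2b*, and the Fc receptor-like genes *Fcrla* and *Fcrl1*. The genes were chosen by the FPKM ratio of the libraries described here, because *Tyrobp* and *Fcer1g* had some of the lowest values of pro-B over pre-pro-B, so the comparison that chose them cannot also test them, and every value of that comparison is given as a description.

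The steady state RNA of both cell types was sequenced from 1 library each, both on a C57BL/6 background. The pre-pro-B library came from *Ebf1* -/- cells derived from the liver of female embryos, and the pro-B library from *Rag2* -/- cells derived from the bone marrow of adult males. Both were grown on OP-9 cells, a mouse stromal line, with 5 ng/mL of Il-7, and the pre-pro-B cells also received 10 ng/mL of Scf and 10 ng/mL of Flt3l. Cell type, genotype, sex, age, tissue of origin and cytokines therefore cannot be told apart, and no difference has a replicate check.

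Fc receptors bind the constant part of antibodies. Most activating receptors have almost no signalling part of their own and depend on a small adaptor, such as Fcer1g (the common Fc receptor gamma chain) or Tyrobp (DAP12), whose cytoplasmic tail carries an immunoreceptor tyrosine-based activation motif (ITAM). Src family kinases phosphorylate the motif and Syk or Zap70 then docks on it. Hcst (DAP10) carries a different motif that recruits phosphoinositide 3-kinase, and Fcgr2b carries an inhibitory motif (ITIM) that recruits the lipid phosphatase SHIP, encoded by *Inpp5d*. The adaptors are best known from myeloid, mast and natural killer cells, whereas the B cell receptor signals through its own ITAM chains, Cd79a and Cd79b.

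The labels state about 90000000 reads per library. Expression is given as FPKM, which counts fragments for each kilobase of a transcript relative to all mapped reads of the library, with the limits of the 95% interval that Cuffdiff computed for each transcript. These limits come from the error model of Cuffdiff, and with 1 library per cell type they do not measure the spread between cultures. The targeted genes were not at 0 in their own null cells. *Ebf1* reached FPKM 64.0 in the pre-pro-B and 273 in the pro-B library, and *Rag2* had 34.5 in the pre-pro-B and 22.9 in the pro-B library. These sums over whole transcripts do not single out the deleted parts and so do not check the labels. Of 11 B lineage markers with FPKM 1 or more in either library, 10 were at least 2-fold higher in the pro-B library. Of all genes with that FPKM, 12.2% were. Among the 10 were *Igll1* (1.17 and 798) and *Vpreb3* (2.02 and 877). *Ms4a1*, which encodes the mature B cell antigen CD20, was listed at 0 in both libraries.

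FPKM 1 or more in either library was reached by 6 of the 10 genes. *Tyrobp*, *Fcer1g* and *Fcgr3* were at least 2-fold lower in the pro-B library, *Fcrla* was at least 2-fold higher, and *Fcgr2b* and *Fcrl1* differed by less than 2-fold. The limit was set on log2 of FPKM plus 1, summed over the protein-coding transcripts of a gene, and under it 19.1% of all 10525 genes with FPKM 1 or more in either library were lower in the pro-B library and 12.2% were higher. The remaining 4 genes, *Hcst*, *Fcgr1*, *Fcgr4* and *Fcer1a*, stayed below an FPKM of 1 in both libraries. The 10 genes have 14 protein-coding transcripts, of which 8 had FPKM 1 or more in either library. Of these 8, 3 had intervals that did not overlap between the libraries, and all 3 were lower in the pro-B library. Of the 12716 coding transcripts with FPKM 1 or more in either library, 2.98% had separate intervals with the pro-B value lower and 1.40% with it higher. In bulk RNA, a smaller share of expressing cells and less RNA per cell cannot be told apart.

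**Figure D1:**
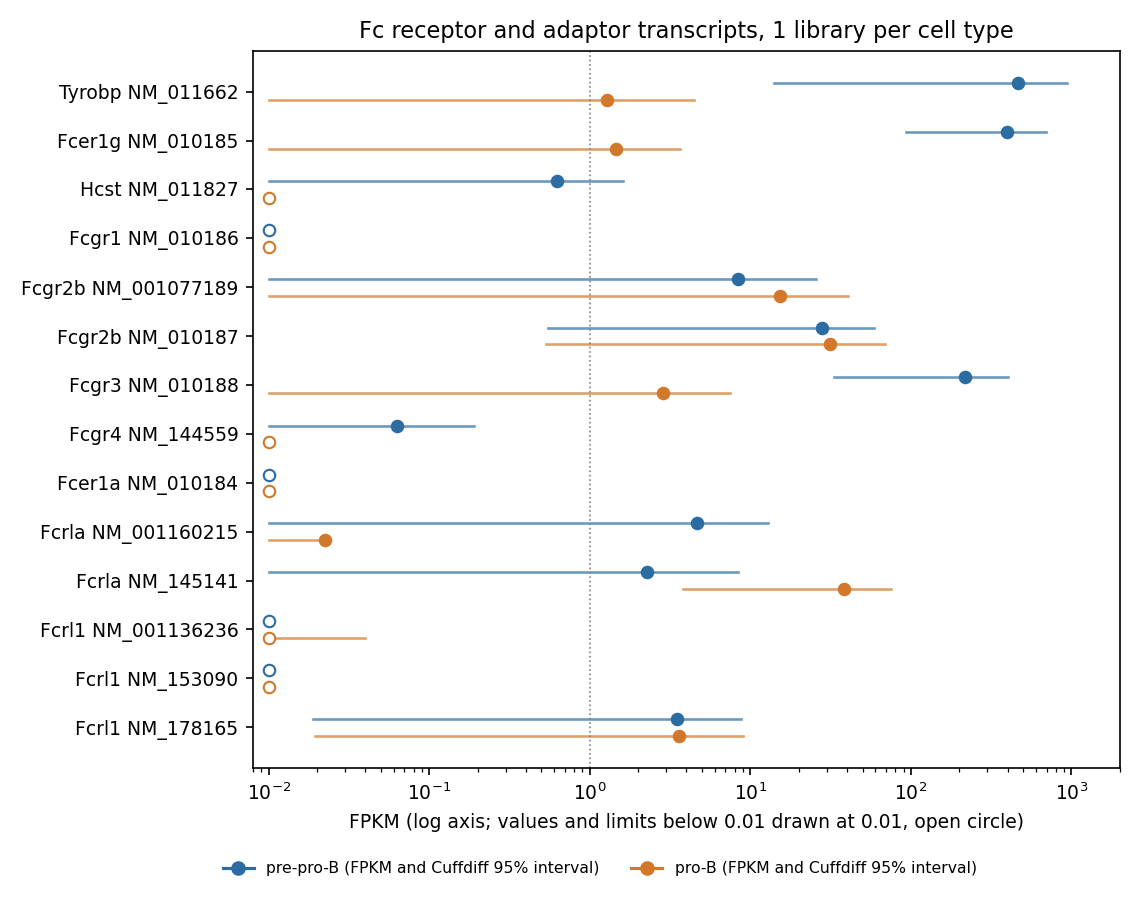
FPKM of each transcript of the 10 genes (log axis) in the pre-pro-B library (blue) and the pro-B library (orange), with Cuffdiff's 95% interval as a line; the dotted line marks an FPKM of 1 and open circles stand for values below 0.01. The intervals of *Tyrobp*, *Fcer1g* and *Fcgr3* are separate, while those of both *Fcgr2b* transcripts overlap.

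Among the adaptors, *Tyrobp* (NM_011662, chromosome 7 of mm9, 31198807 to 31202598, plus strand) reached FPKM 463 in the pre-pro-B library (limits 14.1 and 936) but 1.28 in the pro-B library (limits 0 and 4.47). The FPKM differed 362-fold, and the nearest limits of the intervals lay 3.16-fold apart. *Tyrobp* ranked 39 of 20247 genes by FPKM in the pre-pro-B library and 9174 in the pro-B library. Its log2 ratio of FPKM plus 1, pro-B over pre-pro-B, was -7.67, the second lowest of all genes. The single transcript of *Tyrobp* is short, at 566 bases, and its FPKM corresponded to about 23587 fragments in the pre-pro-B and 65.2 in the pro-B library if all 90000000 reads had aligned.

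*Fcer1g* (NM_010185, chromosome 1, 173159703 to 173164480, minus strand) reached FPKM 395 in the pre-pro-B library (limits 93.4 and 695) but 1.46 in the pro-B library (limits 0 and 3.66). This was a 270-fold difference, and the nearest limits lay 25.5-fold apart, the widest gap of the 3 genes. The log2 ratio of FPKM plus 1 was -7.33, next in order after *Tyrobp*. *Tyrobp* and *Fcer1g* thus had overlapping intervals with each other in both libraries.

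*Hcst*, the adaptor of the NKG2D receptor, was much less abundant. It lies tail to tail with *Tyrobp* on chromosome 7 (31202732 to 31204873, minus strand), with 135 bases between the annotated genes, yet its FPKM was 0.625 in the pre-pro-B library (limits 0 and 1.61) and it was listed at 0 in the pro-B library. In its transcript of 442 bases, 3 fragments would have given an FPKM of 0.0754. The libraries were strand-specific and aligned with strand-specific settings, while a strand setting for the later counting is not given in the sources used here.

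Of the activating receptor chains, *Fcgr3* alone was above an FPKM of 1. *Fcgr3* encodes the low affinity IgG receptor FcγRIII, which needs Fcer1g to reach the cell surface (NM_010188, chromosome 1, 172981300 to 172989534, minus strand). Its FPKM was 218 in the pre-pro-B library (limits 33.4 and 403) and 2.88 in the pro-B library (limits 0 and 7.45), a 75.9-fold difference with 4.48-fold between the nearest limits. Its log2 ratio of FPKM plus 1, -5.82, was the 37th lowest of all genes. *Fcer1g* had a higher FPKM than its partner *Fcgr3* in the pre-pro-B library and a lower one in the pro-B library, with overlapping intervals of the pair within each.

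The high affinity IgG receptor *Fcgr1* (chromosome 3) and the IgE-binding chain *Fcer1a* (chromosome 1) were listed at 0 in both libraries. An FPKM of 0.0129 for *Fcgr1* and of 0.0325 for *Fcer1a* would have corresponded to 3 fragments. *Fcgr4* reached FPKM 0.0631 in the pre-pro-B library (limits 0 and 0.190), worth about 7.10 fragments, and was listed at 0 in the pro-B library. The partner chain of Fcer1a on mast cells and basophils, *Ms4a2*, was also listed at 0 in both libraries.

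The inhibitory receptor *Fcgr2b* lies 42372 bases from *Fcgr4* in the same cluster (chromosome 1, 172890689 to 172906202, minus strand), and unlike *Fcgr3* it was not lower in the pro-B library. Its summed FPKM was 36.3 in the pre-pro-B and 46.6 in the pro-B library, a 1.28-fold difference and a log2 ratio of FPKM plus 1 of 0.35. In the pre-pro-B library *Fcgr3* had the higher FPKM of the pair, and in the pro-B library *Fcgr2b* did. *Fcgr2b* and *Fcgr3* are closely related in their antibody-binding part. Of all stretches of 97 bases, the read length, in the annotated coding transcripts, 3.06% of those of *Fcgr3* and 2.95% of those of *Fcgr2b* occur unchanged in the other gene, so reads from there could be assigned to either, whereas 0 stretches of the other 8 genes occur in another gene.

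*Fcgr2b* has 2 protein-coding transcripts, which differ in length by 141 bases. An annotated coding exon of exactly this length, exon 6 of 8, accounts for the difference (chr1:172893456-172893596 of mm9, minus strand). It encodes the insert in the cytoplasmic tail that separates the b1 form, known from B cells, from the b2 form, known from myeloid cells, and is shown because the level of each form turns on it. The exon was matched to the transcripts by length, since the deposited files give no exons, and the same holds for the transcripts of *Fcrla* and *Fcrl1*.

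Fcgr2b exon 6: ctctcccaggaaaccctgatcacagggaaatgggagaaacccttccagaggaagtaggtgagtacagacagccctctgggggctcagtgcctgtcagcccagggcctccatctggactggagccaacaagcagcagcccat

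The longer transcript with this exon, NM_001077189, reached FPKM 8.42 in the pre-pro-B library (limits 0 and 25.8), against 15.2 in the pro-B library (limits 0 and 40.5). The shorter one, NM_010187, had 27.8 (limits 0.548 and 59.0) and 31.4 (limits 0.533 and 68.6). The longer form made up 23.2% of the FPKM of the gene in the pre-pro-B library and 32.6% in the pro-B library. The shorter form was the more abundant in both libraries, and the intervals of the forms overlapped in each.

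The Fc receptor-like genes encode relatives of the Fc receptors that are best known from B cells. *Fcrla*, an intracellular protein, lies 32974 bases from *Fcgr2b* (chromosome 1, 172847725 to 172857714, minus strand). It had FPKM sums of 6.92 in the pre-pro-B and of 38.2 in the pro-B library, a 5.52-fold difference and a log2 ratio of FPKM plus 1 of 2.31. *Fcrla* was thus the single gene of the 10 that was at least 2-fold higher in the pro-B library.

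The sum covers 2 protein-coding transcripts of *Fcrla* whose lengths, 1661 and 1658 bases, differ by 3. In the mm9 annotation this is a tandem splice acceptor at the start of exon 2, where splicing after either of adjacent CAG triplets keeps or drops 3 coding bases (chr1:172852516-172852558, minus strand). The sequence is shown because the shares of the forms turn on it, with the 3 optional bases in capitals, the intron to their left and the rest of the exon to their right.

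Fcrla exon 2 acceptor: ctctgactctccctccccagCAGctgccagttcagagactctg

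The longer transcript, NM_001160215, reached FPKM 4.64 in the pre-pro-B library (limits 0 and 13.0) but 0.0225 in the pro-B library (limits 0 and 0.0236). NM_145141, without the 3 bases, had 2.28 (limits 0 and 8.44) and 38.2 (limits 3.79 and 74.7). The longer form therefore held 67.1% of the FPKM of the gene in the pre-pro-B library and 0.0588% in the pro-B library. The intervals of each transcript overlapped between the libraries, those of NM_145141 between 3.79 and 8.44. A read can separate these forms only where it crosses that junction. A non-coding transcript of *Fcrla*, NR_027666, which was not in the sums, reached FPKM 1.60 in the pre-pro-B and 1.87 in the pro-B library.

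*Fcrl1*, a receptor of the B cell surface with activating motifs of its own (chromosome 3, 87180309 to 87196055, plus strand), had nearly equal levels, with FPKM sums of 3.52 in the pre-pro-B and of 3.61 in the pro-B library. Of its 3 protein-coding transcripts, NM_178165 held almost all of this, with an FPKM of 3.52 (limits 0.0189 and 8.76) in the first and 3.61 (limits 0.0193 and 9.04). NM_153090 has an extra exon of 60 bases (chr3:87185247-87185306) and NM_001136236 lacks one of 129 bases (chr3:87189573-87189701). The latter exon is shown because the *Fcrl1* signal in both libraries was assigned to transcripts that hold it.

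Fcrl1 129-base exon: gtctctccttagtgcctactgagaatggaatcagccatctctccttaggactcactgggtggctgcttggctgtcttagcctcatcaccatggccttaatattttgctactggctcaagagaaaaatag

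The FPKM of NM_001136236, which lacks it, was 0.000240 in the pre-pro-B library and 0 in the pro-B library, and that of NM_153090 was 7.81e-05 and 0.000222. Each of these is worth far less than 1 fragment, and the values above 0 exceed their own upper limits, which are listed at 0, so nothing is read from them.

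**Figure D2:**
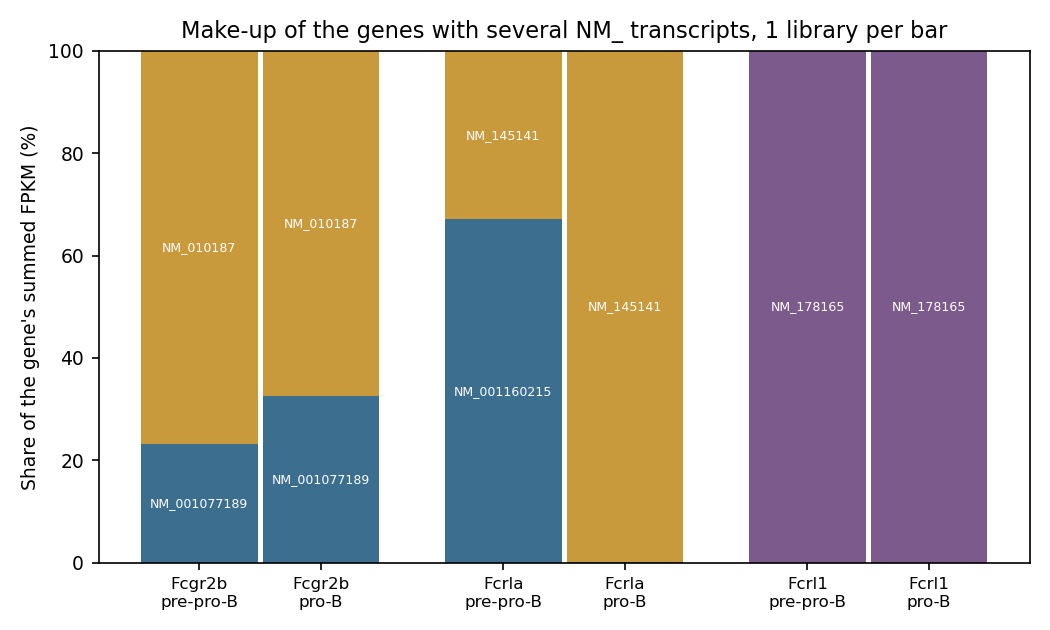
Share of each protein-coding transcript in the summed FPKM of its gene (%), for the 3 genes with several such transcripts, 1 bar per library. The longer *Fcgr2b* form takes 23.2% and 32.6%, the longer *Fcrla* form 67.1% and 0.0588%, and NM_178165 takes nearly all of *Fcrl1* in both.

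The order of the genes by FPKM was *Tyrobp*, *Fcer1g*, *Fcgr3*, *Fcgr2b*, *Fcrla*, *Fcrl1*, *Hcst* and *Fcgr4* in the pre-pro-B library. In pro-B cells it was *Fcgr2b*, *Fcrla*, *Fcrl1*, *Fcgr3*, *Fcer1g* and *Tyrobp*. The main transcripts of all neighbours in either order had overlapping intervals, so no step between neighbours is read as a difference. FPKM is scaled to transcript length, which allows levels of different genes to be set side by side.

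**Figure D3:**
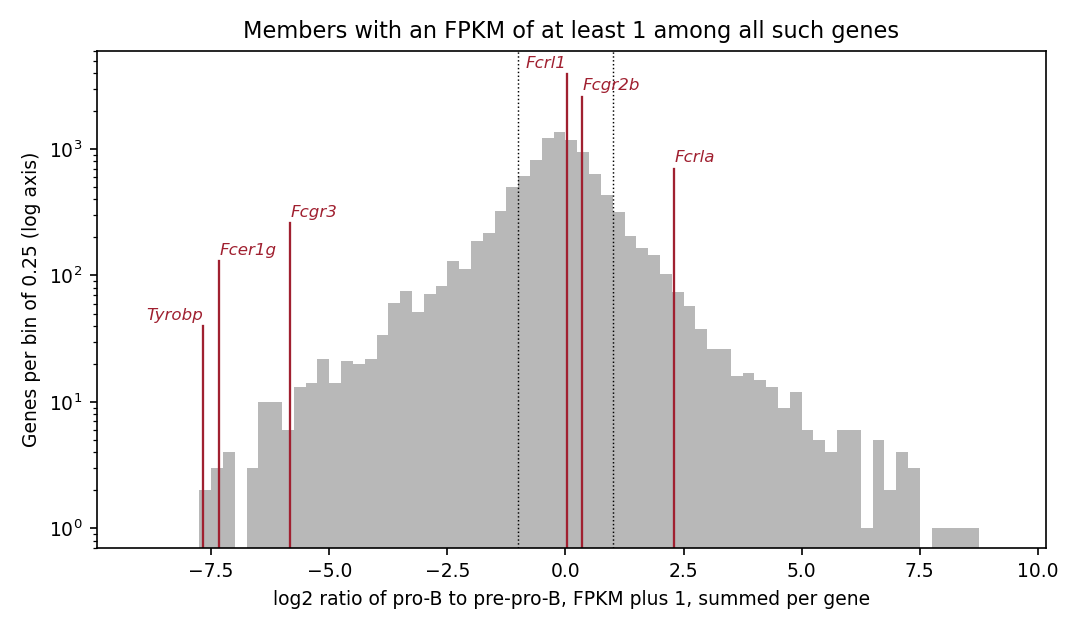
Number of genes (log axis) by log2 ratio of FPKM plus 1, pro-B over pre-pro-B, for the 10525 genes with FPKM 1 or more in either library, in bins of 0.25; dotted lines mark 2-fold and red lines the 6 genes described. *Tyrobp* (-7.67), *Fcer1g* (-7.33) and *Fcgr3* (-5.82) lie in the lower tail, *Fcgr2b* (0.35) and *Fcrl1* (0.03) in the centre and *Fcrla* (2.31) above it.

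The 10 genes are spread over 3 chromosomes, and 6 of them lie on chromosome 1. Along it, *Fcrla*, *Fcgr2b*, *Fcgr4*, *Fcgr3* and *Fcer1g* follow each other, with gaps of 32974, 42372, 21407 and 164636 bases. The gaps, here and above, lie between annotated gene bounds, which for some genes reach beyond the RefSeq transcript positions printed above. Within this stretch the log2 ratios of FPKM plus 1 were 2.31 for *Fcrla*, 0.35 for *Fcgr2b*, -5.82 for *Fcgr3* and -7.33 for *Fcer1g*, while *Fcgr4* was near 0 in both libraries. Neighbours in this stretch thus had ratios on both sides of 0.

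Promoter sequence from RefSeq (GRCm38.p6, a later build than that of the files) was available for 9 of the 10 genes, all but *Tyrobp*. The 250 bases before the start were searched on both strands for GAGGAA, which is a core of sites of the myeloid and B cell factor PU.1 and contains the GGAA of all Ets factors. They were also searched for CCCNNGGG, the core of the Ebf1 site, and for CANNTG, the E-box bound by E2a, and a stretch may belong to matches of several motifs. The windows of *Fcer1g*, the gene with the widest gap between intervals, of *Fcgr3* and of *Fcrla* are shown to set genes that were lower and higher in the pro-B library side by side, with matches to GAGGAA or its reverse complement in capitals.

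Fcer1g (chr1:171234350-171234599, minus strand): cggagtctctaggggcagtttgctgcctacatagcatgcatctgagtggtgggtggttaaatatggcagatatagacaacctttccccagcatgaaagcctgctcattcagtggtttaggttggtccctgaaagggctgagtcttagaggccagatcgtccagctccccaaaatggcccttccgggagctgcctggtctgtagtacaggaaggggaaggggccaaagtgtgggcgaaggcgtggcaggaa
Fcgr3 (chr1:171059404-171059653, minus strand): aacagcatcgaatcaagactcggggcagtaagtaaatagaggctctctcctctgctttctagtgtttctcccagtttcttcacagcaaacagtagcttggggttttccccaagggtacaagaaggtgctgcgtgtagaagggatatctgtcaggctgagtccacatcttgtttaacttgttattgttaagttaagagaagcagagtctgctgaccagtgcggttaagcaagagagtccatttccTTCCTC
Fcrla (chr1:170927584-170927833, minus strand): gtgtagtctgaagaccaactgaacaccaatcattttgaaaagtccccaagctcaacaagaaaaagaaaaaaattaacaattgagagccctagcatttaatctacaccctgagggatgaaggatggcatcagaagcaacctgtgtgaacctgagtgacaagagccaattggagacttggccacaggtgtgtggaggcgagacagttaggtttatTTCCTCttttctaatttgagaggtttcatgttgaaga

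GAGGAA occurred in 6 of the 9 windows, those of *Fcgr1*, *Fcgr3*, *Fcgr4*, *Fcer1a*, *Fcrla* and *Fcrl1*, against 23.1% of 27025 promoters. In *Fcgr3* the match ends at the base before the start, and in *Fcrla* it begins 37 bases before it. *Fcer1g*, *Fcgr2b* and *Hcst* held none in this window. CCCNNGGG occurred in 1 of the 9, that of *Fcgr3*, against 11.6% of promoters, and CANNTG in 7, against 66.1%. Genes with a GAGGAA match were thus found among those lower, higher and near 0, and a match is a run of letters, not a bound site.

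The genes with levels most like *Tyrobp* over the 2 libraries, by distance in log2 of FPKM plus 1, were *Cd34* (FPKM 534 and 1.52), a stem and progenitor cell antigen, at 0.25, then *Fcer1g* at 0.26, *Jchain* (375 and 1.46), which encodes the joining chain of secreted antibodies, at 0.32, the cytokine receptor *Flt3* (303 and 0.916) at 0.66, and *Ptprc* (269 and 0.917), which encodes CD45 and whose pro-B value is uncertain, at 0.82. Nearest to *Fcer1g* were *Jchain* at 0.07, *Tyrobp*, *Cd34*, *Flt3* and *Ptprc*, and with a pseudocount of 0.1 the ribosomal protein gene *Rpl29* (237 and 1.91) took the place of *Ptprc*. Only 2 libraries underlie these distances.

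Other genes of the same signalling systems were taken from lists. Intervals given for them are those of the leading transcript, the one with the highest FPKM in either library, while their FPKM are sums. Of 11 further Fc receptor genes, 9 stayed below an FPKM of 1 in both libraries, among them *Fcer2a*, *Fcrl5*, *Pigr* and *Fcmr*. The other two, *Trim21*, a cytosolic antibody receptor (11.1 and 6.18), and *Fcgrt*, the neonatal Fc receptor (1.68 and 0.436), lay within the 2-fold limit on the scale of FPKM plus 1.

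The ITAM chains of the antigen receptors went both ways. The B cell receptor chains *Cd79a* (FPKM 0.200 and 135) and *Cd79b* (1.81 and 181) were higher in the pro-B library, with separate intervals for both. Of the T cell receptor chains, *Cd3g* (36.8 and 0.0351) was lower with separate intervals and *Cd247* (8.83 and 2.60) was lower with overlapping ones, while *Cd3e* and *Cd3d* were below 1 in both. The pro-B limits of the leading *Cd247* transcript were 0 and 0.0703, below the summed 2.60 of the gene. Among the ITAM chains measured here, including the adaptors, the highest FPKM belonged to *Tyrobp* in the pre-pro-B library and to *Cd79b* in the pro-B library, though the intervals of *Tyrobp* and *Fcer1g*, and of *Cd79a* and *Cd79b*, overlapped there.

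Of 25 receptors that pair with Tyrobp, Fcer1g or Hcst, or signal through them, 10 reached FPKM 1 or more in either library. Among these, 9 were at least 2-fold lower in the pro-B library and 0 were higher. Over all 10525 genes, 19.1% were lower and 12.2% higher. The median log2 ratio of FPKM plus 1 was -2.05, against -0.14 over all of them. FPKM 1 was reached by 9 in the pre-pro-B library and by 4 in the pro-B library. Most of the lower ones thus passed only through the library where they were higher, so the count is partly fixed by the filter. With a 4-fold limit 5 were lower (784 of all genes), and with a pseudocount of 5 on FPKM 4 were (994 of all genes). *Klrd1* (CD94, a natural killer receptor chain) reached FPKM 353 and 2.89, and *Siglech*, a receptor of plasmacytoid dendritic cells, 54.3 and 0.236, both with separate intervals. The integrin chains *Itgb2* (29.8 and 7.73) and *Itgam* (19.7 and 6.40) were lower by less. *Il3ra* (0.586 and 1.11) was the member within 2-fold. The other 15, among them *Trem1*, *Trem2*, *Clec5a*, *Oscar* and *Csf1r*, stayed below 1 in both.

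Downstream of the motif, 31 of 32 kinases, adaptors and targets reached an FPKM of at least 1. Of these, 18 were lower in the pro-B library, 3 higher and 10 within 2-fold, against 19.1% lower and 12.2% higher over all genes. Their median log2 ratio of FPKM plus 1 was -1.27, against -0.14 over all genes. In the pre-pro-B library 31 reached FPKM 1 and in the pro-B library 22. With a 4-fold limit 10 were lower and 1 was higher (784 and 451 of all 10525 genes). With a pseudocount of 5 on FPKM 1 was higher (784 of all genes). The kinases that dock on ITAMs were both within 2-fold, *Syk* at an FPKM of 99.3 and 74.2 and *Zap70* at 21.8 and 32.9. Of the Src family, *Lyn* (71.5 and 31.6) and *Fgr* (6.90 and 0.0312) were lower, *Fyn* (73.3 and 90.7) was within 2-fold, and *Blk* (2.97 and 7.95) was higher. Among the adaptors, *Lat2* (70.7 and 0.523) and *Grap2* (14.0 and 0.125) were lower, and *Blnk*, the adaptor of the B cell receptor pathway (1.83 and 147), was higher with separate intervals. *Pik3r1*, a regulatory subunit of phosphoinositide 3-kinase (193 and 15.1), and *Plcg2*, a phospholipase activated through Syk (109 and 38.7), were lower, and *Vav2* (6.91 and 17.2) was higher. *Fgr* and *Vav3* (7.03 and 0.0437) were lower with separate intervals.

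On the inhibitory side, 24 of 29 genes reached an FPKM of at least 1. Of these, 15 were lower in the pro-B library, 3 higher and 6 within 2-fold, against 19.1% lower and 12.2% higher over all genes. In the pre-pro-B library 23 reached FPKM 1 and in the pro-B library 15. With the most abundant transcript of each gene alone, 5 were higher (1335 of all 10500 genes). The median log2 ratio of FPKM plus 1 was -2.18, against -0.14 over all genes. *Inpp5d*, which encodes SHIP, the partner of Fcgr2b, was within 2-fold on that scale (45.3 and 82.8), as *Fcgr2b* was. Its relative *Inppl1* was higher (2.09 and 44.3), and the phosphatase *Ptpn6* was lower (88.3 and 15.6). The B cell inhibitory receptors *Cd22* (0.545 and 25.8) and *Cd72* (43.2 and 265) were higher in the pro-B library, while the myeloid inhibitory receptor *Clec12a* (70.6 and 0.0897) was lower with separate intervals. *Ptprc*, whose product CD45 is carried by nucleated blood cells in general, is counted among the 15 with sums of 269 and 0.917. The pro-B limits of its leading transcript, NM_011210, were both listed at 0, so its pro-B value is uncertain, and whether that estimate failed was not tested.

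**Figure D4:**
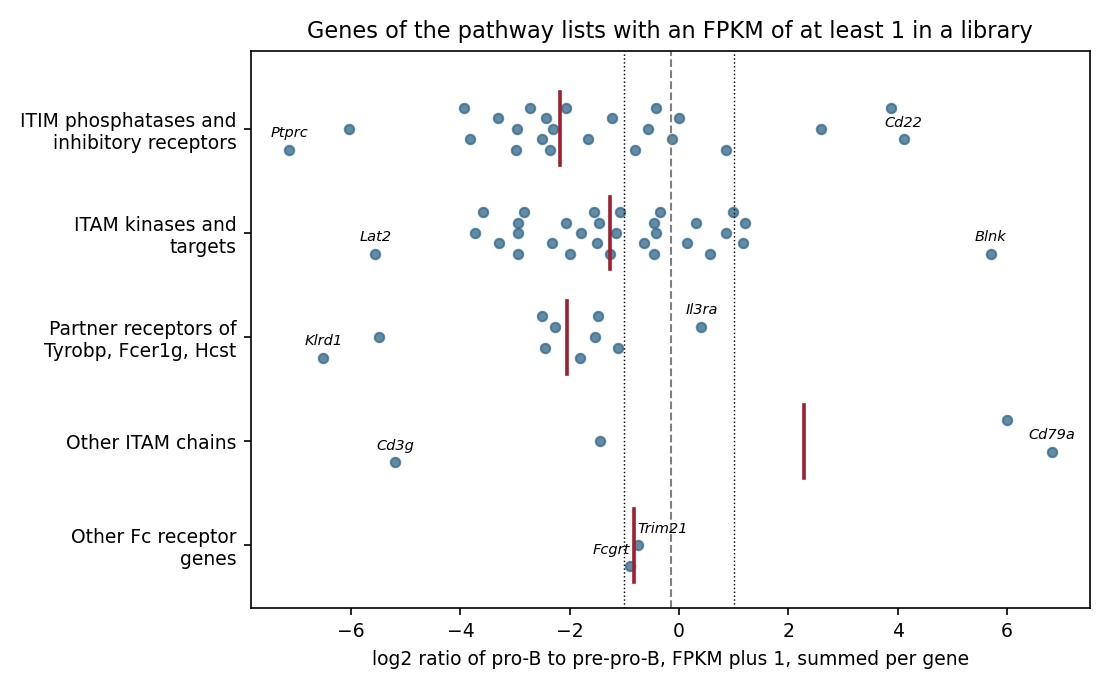
Log2 ratio of FPKM plus 1, pro-B over pre-pro-B, for each gene of the 5 lists with FPKM 1 or more in either library, 1 point per gene; red bars mark list medians, the dashed line the median of all genes (-0.14) and dotted lines 2-fold. The partner receptors lie almost wholly to the left, and *Cd79a*, *Cd79b* and *Blnk* lie far to the right.

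Markers of other cell types that use these adaptors were examined in the same way, against 19.1% lower and 12.2% higher over all genes. In the pre-pro-B library, 7 natural killer, 5 myeloid, 2 mast cell, 6 dendritic and 5 T cell markers reached FPKM 1. In the pro-B library 2, 1, 0, 2 and 1 did. Most of these markers thus passed only through the library where they were higher, so the counts of lower markers are partly fixed by the filter. Of 9 natural killer markers, 7 reached an FPKM of at least 1 and all 7 were lower, with FPKM sums of 451 in the pre-pro-B and 6.42 in the pro-B library, led by *Klrd1* and the granzyme *Gzma* (56.3 and 0.123), while *Gzmb* was listed at 0 in both. Of 13 myeloid markers measured, 5 reached it and all 5 were lower (summed FPKM 74.6 and 6.65), led by *Mpo* (35.7 and 0.122), and *Elane*, *Ctsg* and *S100a9* were listed at 0 in both. Of 10 mast cell and basophil markers, *Kit* (107 and 0.377) and *Cpa3* (10.5 and 0.0296) were lower (summed FPKM of the list 118 and 0.499). Another 7, *Ms4a2*, *Mcpt8*, *Cma1*, *Mcpt4*, *Tpsb2*, *Gata2* and *Prss34*, were listed at 0 in both. *Kit*, which made up most of the pre-pro-B sum, encodes the receptor of Scf. The paper describes the receptors of Scf and Flt3l as down-regulated in pro-B cells. *Kit* and *Flt3* encode these receptors and also stand on the mast cell and the dendritic cell list. Which cells carried their RNA was not tested.

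Of 9 dendritic cell markers, 5 were lower and *Tcf4* (35.3 and 75.8) was higher (summed FPKM 653 and 80.6), with *Ccr9* (212 and 0.661) and *Flt3* leading the lower ones. Of 9 T cell markers, 4 were lower and *Lat* (9.48 and 19.8) was within 2-fold on that scale (summed FPKM 193 and 20.4), with *Trat1* (95.7 and 0.236) and *Cd28* (48.8 and 0.209) the most abundant in the pre-pro-B library. Of 10 stromal markers, 6 reached it, with *Pdgfrb* (15.9 and 0.377) lower, *Fn1* (1.16 and 5.16) and *Col1a2* (0.707 and 2.82) higher and the other 3, among them *Bgn* (2.52 and 5.04), within 2-fold on the scale of FPKM plus 1 (summed FPKM 21.9 and 17.9), and *Dcn* and *Postn* listed at 0 in both. The natural killer list shares *Klrd1*, *Klrk1* and *Ncr1* with the partner receptors, and 5 of the 10 partner receptors with an FPKM of at least 1 are on a marker list. The part of such cells in the levels of *Tyrobp*, *Fcer1g* and *Fcgr3* was not tested.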

How the data were processed

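RNA depleted of rRNA and small RNAs from both cell types, 1 library each, was sequenced as strand-specific single-end reads of 97 bases. Reads were trimmed and aligned to mm9 with TopHat (1.5 in the submitters' processing notes; the methods name another release), with up to 20 alignments per read. The authors then estimated the deposited FPKM and its 95% interval for each RefSeq transcript with Cuffdiff 2.1.1, using multi-read and bias correction and no scaling between libraries. A further deposited table holds the authors' fold changes and p-values and repeats the FPKM, so 2 per-sample columns were not used.

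With Python 3.11.15, numpy 2.4.6, pandas 2.3.3 and matplotlib 3.10.9, FPKM were summed over the NM_ transcripts of each gene, named through a RefSeq table for 26555 of 26968 transcripts, which gave 20247 genes after genes with a failed estimate were dropped. A call required a 2-fold difference of FPKM plus a pseudocount of 1, with a minimum FPKM of 1 in a library. No test was possible with 1 library per cell type. Depth came from the labels, about 90000000 reads per library, and fragments were approximated from the full transcript length, which overstates them for short transcripts. An exact 0 can be a failed estimate, and such genes are only said to be listed at 0. The code that makes the 2-fold calls was tested on simulated data. Members and lists were chosen with earlier results of these data known. Named from each list were the 4 genes with the highest FPKM in either library and the 2 with the largest log2 ratio per direction. From each marker list these were the 2 highest in each library and those at 0. The 5 genes nearest to *Tyrobp* and to *Fcer1g* were named too. Many others, among them *Zap70*, *Lyn*, *Fgr*, *Fyn*, *Blk*, *Vav3*, *Trem2* and *Col1a2*, were chosen after their values were seen. The alternatives were other pseudocounts (0.1 and 5), no filter, TPM and median-ratio scaling, the most abundant transcript, and a 4-fold limit.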

Additional observations from a re-analysis of the deposited data

How the results depend on the processing

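Of the 10 genes, 3 were lower and 1 was higher in pro-B cells under the alternatives tried, except that 4, *Hcst* included, were lower after TPM scaling. Dropping the filter could not change any count of genes. With a pseudocount of 1, a gene below FPKM 1 in both libraries cannot differ 2-fold. Without the filter and under both scalings there were 3 transcripts with separate intervals that were lower and 0 that were higher. TPM scaling changed the relative scale of the libraries by -0.09 on the log2 scale and median-ratio scaling by 0.09. Shifts of this size could not close gaps between intervals of 3.16-fold or more, so the 3 separate transcripts were bound to stay separate. TPM scaling also raised the values against the fixed pseudocount and filter. After it 11429 genes passed the filter and 2720 were lower, against 10525 and 2011 in the main setting. Of the recomputed counts, 82 stayed within 1.5 times the reported count and 10 did not. The 82 include the gene counts without the filter, which were fixed in advance. Over all genes, 994 were lower and 784 higher with a pseudocount of 5, and 784 were lower and 451 higher with a 4-fold limit. With a 4-fold limit, 5 of the 10 partner receptors were lower, 10 kinases and targets were lower and 1 was higher, and 1 ITAM chain was lower. With a pseudocount of 5, 4 partner receptors and 1 ITAM chain were lower and 1 kinase or target was higher. With a pseudocount of 0.1, or after TPM scaling, 1 further Fc receptor gene was lower. With the most abundant transcript alone, 5 inhibitory genes were higher. *Hcst*, listed at 0 in pro-B cells, had a log2 ratio of -2.86 with a pseudocount of 0.1 and of -1.50 after TPM scaling. No paired analysis was possible because each cell type has 1 library, and for the same reason no library could be left out. Depth limits *Fcgr4*, whose pre-pro-B level was worth about 7.10 fragments, while the zeros of *Fcgr1* and *Fcer1a* may be failed estimates.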
